A study of Mus musculus with 44 samples.

Results

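Fc receptors and their proximal kinases were followed as 9 genes in the cortex and hippocampus of young mice: Fcer1g, Fcgr1, Fcgr2b, Fcgr3, Fcgr4, Fcrls, Fcgrt, Syk and Lyn. The genes were taken by symbol and matched to Ensembl identifiers through GENCODE release M21. All 9 were found among the 50714 identifiers that the 44 libraries share, and all 9 passed the filter on low counts in each fit. All mice carried the genotype CX3CR1-CreERT2 (+/-) x RPL10a-GFP flox (+/-), although the series' design text gives the floxed allele as fl/fl. Tamoxifen at 100 mg/kg, in sunflower seed oil with ethanol, was given at p15, p17 and p19, and tissue was harvested at p28 to p29. Control mice of the same genotype received the vehicle, per the labels, or were untreated, per the design text. Tamoxifen lets the Cre, which the CX3CR1 promoter drives in microglia and in other macrophages, switch on the ribosomal protein RPL10a with a GFP tag. The tagged ribosomes and the RNA on them are then pulled down with antibodies to GFP, a method called translating ribosome affinity purification (TRAP).

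Each replicate letter had 4 libraries. Input was the RNA of the whole homogenate and MG_TRAP was the RNA pulled down from it. SN_input was the RNA of synaptosomes, a fraction of synapses torn off with fine cell processes, and PeMP_TRAP, which the titles of the second set call SN_TRAP, was the RNA pulled down from that fraction. Controls were A to C, and tamoxifen libraries were D to F, in the same first set, and G to K, in a second set that holds no controls. The sets are told apart by the style of their titles and file names. Nothing in the labels says that letters are separate animals, so p-values measure the spread between these libraries, which may be technical.

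Fc receptors bind the constant part of antibodies. In mice the activating receptors FcγRI, FcγRIII and FcγRIV (Fcgr1, Fcgr3 and Fcgr4) signal through a shared adaptor, the FcR γ chain (Fcer1g), whose activation motif is phosphorylated by Src family kinases such as Lyn and then binds the kinase Syk. FcγRIIb (Fcgr2b) carries an inhibitory motif instead. In brain these receptors are known mainly from microglia and other macrophages, which use them to take up antibody-coated particles. Fcgrt encodes the heavy chain of the neonatal Fc receptor, which recycles antibody inside cells, and Fcrls encodes an Fc receptor-like protein often used to mark microglia.

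In GRCm38 with GENCODE M21, 4 of the 9 genes lie close together on chromosome 1: Fcgr2b (170958617 to 170976547, minus strand), Fcgr4 (171018920 to 171029761, plus), Fcgr3 (171051174 to 171064935, minus) and Fcer1g (171229572 to 171234365, minus). Fcgr1 (96282909 to 96293969, minus) and Fcrls (87250758 to 87263738, minus) lie on chromosome 3. Lyn lies on chromosome 4 (3678115 to 3813122, plus), Fcgrt on chromosome 7 (45092990 to 45103851, minus) and Syk on chromosome 13 (52583173 to 52648792, plus). Fcgr2b and Fcgr3, an inhibitory and an activating receptor, share much of their coding sequence, with 96.5% identity over 509 aligned bases, against 66.1% for Fcgr3 and Fcgr4 over 443 and 66.4% for Fcgr2b and Fcgr4 over 453. The 120 coding bases at which the genes are most alike, in exon 5 of Fcgr2b (chr1:170967984-170968103, minus strand) and exon 3 of Fcgr3 (chr1:171057695-171057814, minus strand), differ at the 1 base in capitals and are shown because a short read from them can fit either gene.
Fcgr2b: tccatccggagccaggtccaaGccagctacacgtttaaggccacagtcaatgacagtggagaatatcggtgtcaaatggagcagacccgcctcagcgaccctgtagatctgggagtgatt
Fcgr3: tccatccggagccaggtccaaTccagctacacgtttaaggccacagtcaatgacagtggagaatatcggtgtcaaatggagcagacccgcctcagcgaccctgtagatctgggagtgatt
Of all 50-base words in their transcripts, 6.72% in Fcgr2b and 10.2% in Fcgr3 occur in another gene, as do 15.7% of those in Lyn, which the gene Gm11787 shares, and 0 in the other 6 members. The read length and the counting options are not given in the sources used here, so how such reads were assigned is unknown, and values of Fcgr2b, Fcgr3 and Lyn carry this uncertainty. The same holds for strand: the opposite-strand gene Gm38204 overlaps 155 exonic bases of Fcgr2b, and Gm26857 overlaps 248 of Lyn.

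Promoters, taken as 250 bases before to 50 after a transcription start that RefSeq (GRCm38.p6) gives, were available for 8 of the 9 genes. The starts used for Fcgr3 and Fcrls lie inside the GENCODE gene spans given above, not at their outer ends. The purine-rich word GAGGAAG, or CTTCCTC on the other strand, holds the GGAA core bound by ETS factors such as PU.1, a regulator of macrophage genes. It was present in 5 of the 10 promoters of these 8 genes, which belong to 4 genes (Fcgr1, Fcgr3, Fcgr4 and Fcrls). Of all 32851 promoters of the same length, 4477 held it (13.6%). The word was chosen after the members' promoters had been looked at, so the match is a description of their letters. Windows of 60 bases are shown in the direction of the gene, with the word in capitals, for Fcgr4 (chr1:171018866-171018925), Fcgr3 (chr1:171059404-171059463), Fcrls (chr3:87263636-87263695) and Fcgr1 (chr3:96293993-96294052), the members that hold it. Members without the word were enriched in MG_TRAP as well, and a link of the word to enrichment was not tested.
Fcgr4: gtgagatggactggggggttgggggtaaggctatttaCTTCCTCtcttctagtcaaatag
Fcgr3: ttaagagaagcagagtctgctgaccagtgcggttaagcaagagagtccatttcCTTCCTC
Fcrls: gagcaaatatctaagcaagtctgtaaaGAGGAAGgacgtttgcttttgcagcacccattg
Fcgr1: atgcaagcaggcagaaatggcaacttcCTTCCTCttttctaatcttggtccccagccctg

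Assigned reads per library ranged from 740679 to 35427238, and 3 counts, the upper limit that a count of 0 allows, stood for 0.0847 to 4.05 CPM, the counts of a gene scaled to a common total of assigned reads. Intervals and floors cover counting error only, since amplified reads were counted with no molecular identifiers. PeMP_TRAP libraries of the second set had 20352794 to 35427238 reads but 5372 to 7369 detected genes, against 11694 to 13096 in those of the first set from tamoxifen mice. The 10 microglial markers summed to 86.5 to 280 CPM in Input and 7411 to 23668 CPM in MG_TRAP of tamoxifen mice, and to 803 to 4349 CPM in MG_TRAP of control mice, in which no tagged ribosomes were to be made. In bulk RNA, more cells of a type and more RNA per cell cannot be told apart.

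**Figure D1:**
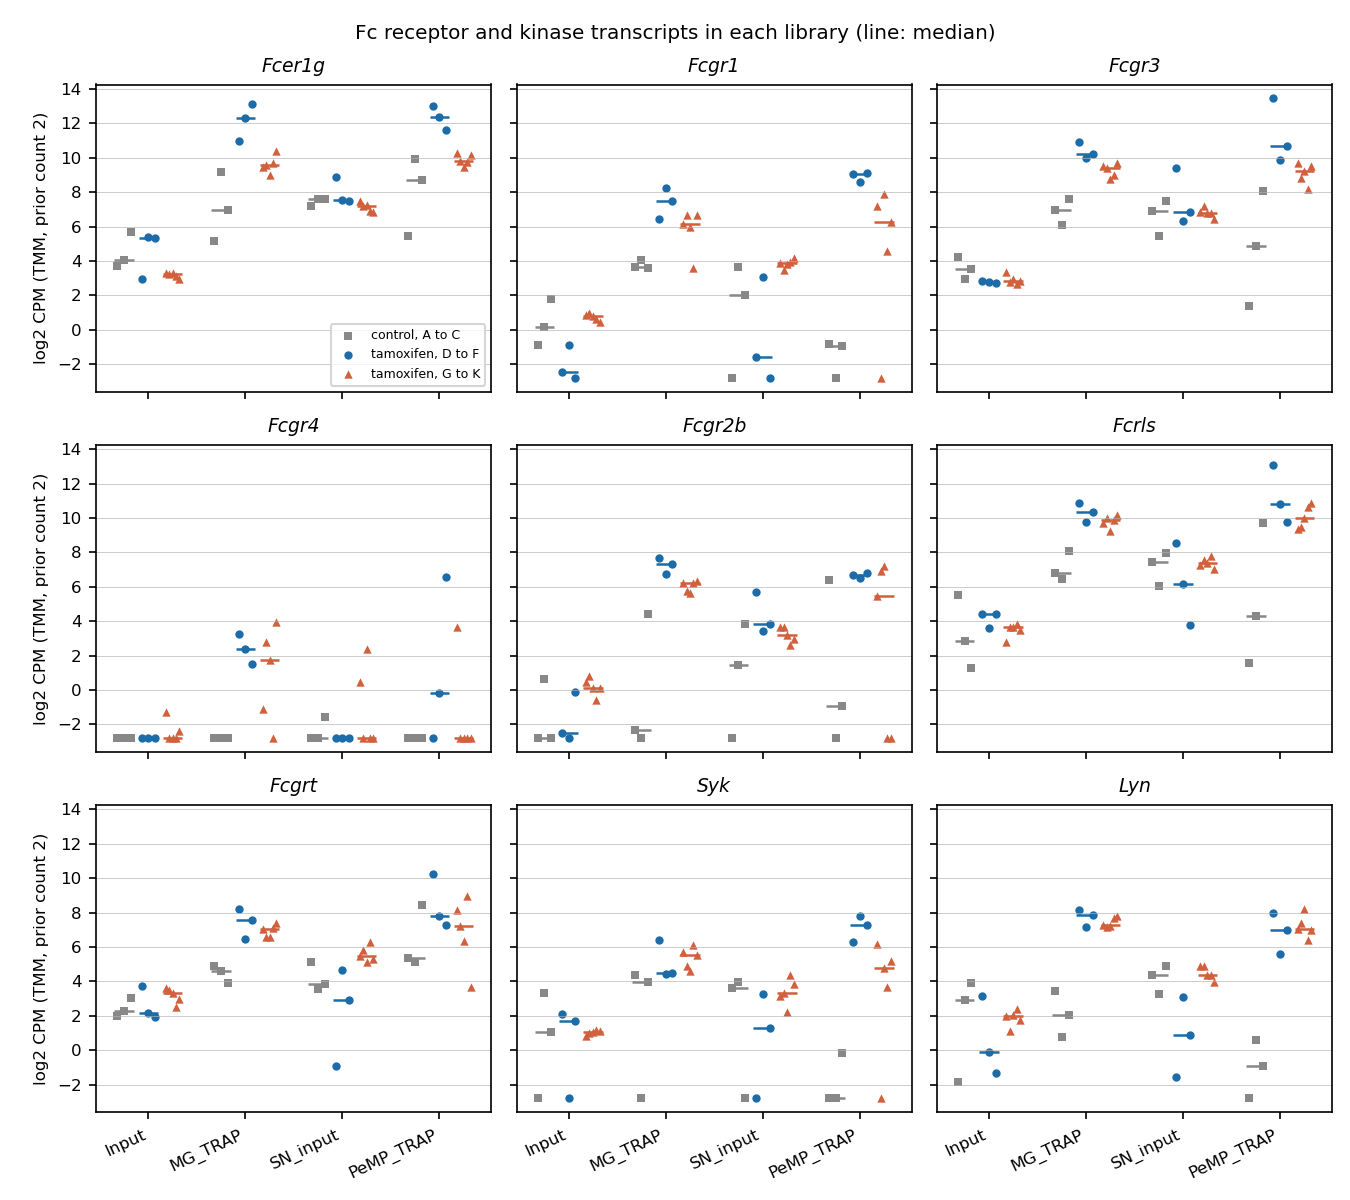
Level of each of the 9 genes in each library, as log2 CPM (TMM scaling, prior count of 2) on the vertical axis, by fraction, with 1 panel per gene. Grey squares are control A to C, blue circles tamoxifen D to F, orange triangles tamoxifen G to K, and lines are medians; in tamoxifen mice, MG_TRAP lies above Input for 8 genes in all libraries and for Fcgr4 in part.

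Whether microglial ribosomes carried these transcripts was asked by setting MG_TRAP against Input in tamoxifen mice. This comparison alone does not decide it, since control mice, in which no tagged ribosomes were to be made, gave a members' median of 3.13. In control mice 0 of the 9 were called (0.0135% of all genes). In tamoxifen mice all 9 genes were higher in MG_TRAP, by 4.16 to 6.97 on the log2 scale, with a median of 6.67. In the edgeR test over 15710 genes, 6.82% passed an adjusted p of 0.05 in either direction and 4.67% passed as higher, and the median of all genes was -0.14. For 8 of the 9 genes the 8 MG_TRAP libraries lay entirely above the 8 Input libraries, as they did for 4.37% of the genes tested. All 10 microglial markers were higher as well, with a median of 6.37, and the part of other cell types in the result was not tested: 8 markers of border macrophages, which the promoter also reaches, summed to 2.37 to 21.4 CPM in Input and 83.3 to 246 CPM in MG_TRAP, with 3 of 8 called higher. Markers of B and plasma cells, in which Fcgr2b, Syk and Lyn are also active, summed to 0 to 3.79 CPM in Input and 45.0 to 157 CPM in MG_TRAP, with 3 of the 5 tested called higher and a median of 6.29.

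Fcer1g is the shared adaptor. In Input of tamoxifen mice it was at 12.1 CPM at the lowest, 14.4 at the median and 47.5 at the highest, and in MG_TRAP at 750, 1464 and 7513 CPM. The groups did not overlap, and the log2 difference was 6.97 (SE 0.451, adjusted p = 2.75e-15). Within MG_TRAP, D, E and F, at 2101, 4789 and 7513 CPM, all lay above the 5 libraries of the second set, the highest of which was K at 1753 CPM.

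Of the activating receptors, Fcgr3, which binds antibody complexes with low affinity, stood at 7.63 CPM at the lowest, 10.5 at the median and 15.03 at the highest in Input and at 626, 967 and 2069 CPM in MG_TRAP. Its log2 difference was 6.75 (SE 0.580, adjusted p = 1.04e-11), with no overlap, and D was the highest MG_TRAP library. Fcgr1, the high-affinity receptor, was at 0 to 2.78 CPM in Input, with a median of 2.05, and at 16.6 to 293 CPM in MG_TRAP, with a median of 115. It differed by 6.71 (SE 1.198, adjusted p = 0.000136), and J, at 16.6 CPM, lay well below the next MG_TRAP library, I, at 89.9 CPM. Fcgr4, a receptor of intermediate affinity, was scarce throughout. It was at 0 in 6 of 8 Input libraries, and no higher than 0.402 CPM, and reached 20.3 CPM in MG_TRAP, with a median of 4.79 and a count of 0 in J. Its groups overlapped, and its log2 difference of 6.67 (SE 2.03, adjusted p = 0.0347) had the least support of the 9: leaving out D, E, H, I or K gave an adjusted p of 0.0695, 0.0828, 0.0668, 0.0504 or 0.0915.

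The inhibitory receptor Fcgr2b was at 0 to 2.48 CPM in Input, with a median of 1.18, and at 72.1 to 217 CPM in MG_TRAP, with a median of 103. The groups did not overlap, and the log2 difference was 6.81 (SE 1.22, adjusted p = 0.000145). Fcrls was at 10.2, 19.2 and 34.4 CPM in Input (lowest, median and highest) and at 842, 1220 and 1987 CPM in MG_TRAP, a log2 difference of 6.32 (SE 0.550, adjusted p = 1.48e-11). Fcgrt, the neonatal Fc receptor, which vascular cells express as well, was at 4.27, 13.7 and 21.7 CPM in Input and at 82.9, 168 and 311 CPM in MG_TRAP. Its log2 difference, 4.16 (SE 0.750, adjusted p = 0.000155), was the lowest value of the 9, and its groups did not overlap.

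Of the kinases, Lyn stood at 0.305, 5.38 and 14.1 CPM in Input (lowest, median and highest) and at 134, 218 and 297 CPM in MG_TRAP, a log2 difference of 5.86 (SE 0.795, adjusted p = 8.5e-07). Syk stood at 0, 3.11 and 6.64 CPM in Input and at 18.6, 51.1 and 97.5 CPM in MG_TRAP, a log2 difference of 4.44 (SE 1.08, adjusted p = 0.00576). Neither kinase had overlapping groups. For Syk, E and F of the first set, at 20.6 and 18.6 CPM, were the lowest MG_TRAP libraries, and the first set alone gave 4.15 with an adjusted p of 0.207.

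Levels of different genes were compared per kb of exon. In MG_TRAP of tamoxifen mice the median order was Fcer1g at 1675 CPM per kb, Fcgr3 at 557, Fcrls at 523, Fcgrt at 80.0, Lyn at 53.5, Fcgr1 at 44.4, Fcgr2b at 17.7, Syk at 5.46 and Fcgr4 at 3.81. The sets differed in the order of neighbours: Fcgr3 and Fcrls had medians of 568.1 and 455 in D to F but 524 and 552 in G to K, Lyn and Fcgr1 of 48.2 and 56.4 but 53.7 and 37.2, and Syk and Fcgr4 of 2.196 and 3.87 but 6.63 and 3.75. Neighbours in the pooled order overlapped in their ranges over the 8 libraries except at 2 steps. Fcrls, with a lowest library of 361 CPM per kb, lay above Fcgrt, with a highest of 148, and Fcgr2b, with a lowest of 12.5, lay above Syk, with a highest of 10.4. In PeMP_TRAP the median order was Fcer1g at 1229 CPM per kb, Fcrls at 384, Fcgr3 at 351, Fcgrt at 60.1, Fcgr1 at 59.4, Lyn at 26.9, Fcgr2b at 7.48, Syk at 3.34 and Fcgr4 at 0. With the longest coding transcript as the length, chosen after seeing the data, Fcgr3 stood at 452 CPM per kb and Fcrls at 394 in PeMP_TRAP, so the order of these genes depends on the length used. It also differed between the sets at exon length, where Fcgr3 and Fcrls had medians of 795 and 420 in D to F but 267 and 348 in G to K. So did the order of Fcgr1 and Fcgrt (82.0 and 61.7 but 28.8 and 58.5), of Fcgr1 and Lyn (82.0 and 22.04 but 28.8 and 29.2) and of Syk and Fcgr2b (12.97 and 8.47 but 2.32 and 6.49). With exon length, the ranges of all neighbours overlapped, those of Fcgr3 and Fcgrt because the highest Fcgrt library, J at 243 CPM per kb, lay above the lowest Fcgr3 library, J at 174.

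**Figure D2:**
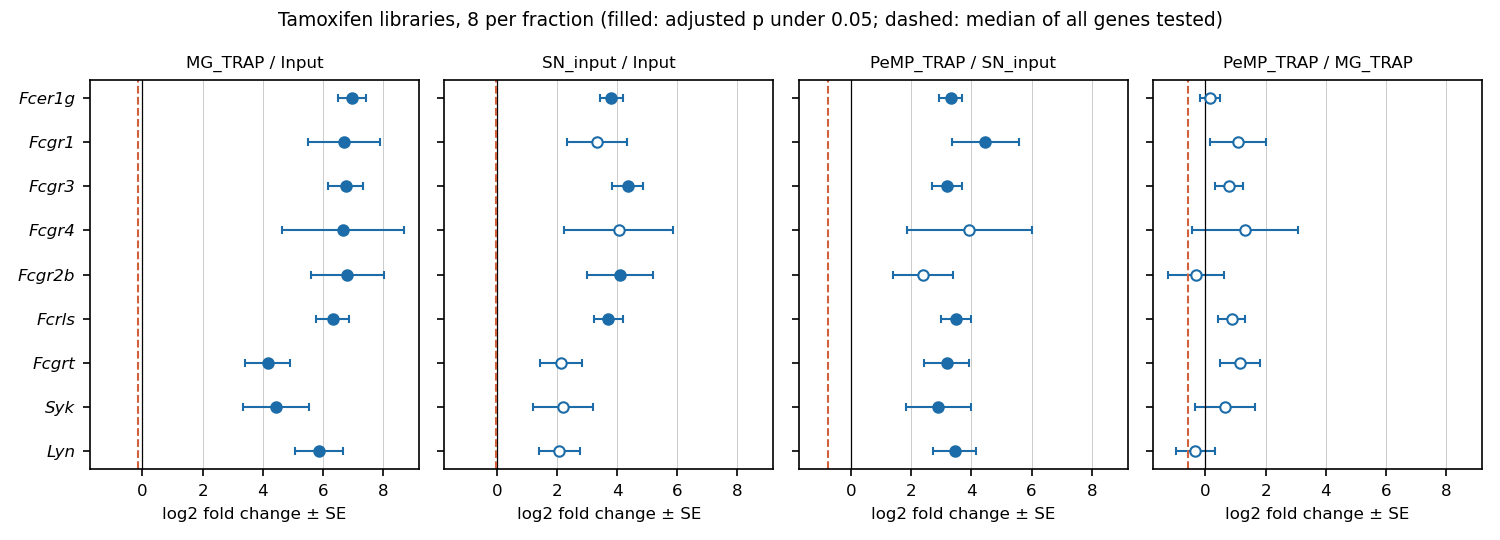
Log2 differences (horizontal axis, with SE) of the 9 genes in 4 comparisons between fractions of tamoxifen mice, 8 libraries against 8, from edgeR. Filled points passed an adjusted p of 0.05 and dashed lines are the median of all genes tested; all 9 genes are filled in MG_TRAP against Input, 7 in PeMP_TRAP against SN_input, 4 in SN_input against Input and 0 in PeMP_TRAP against MG_TRAP.

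The synaptosome fraction itself, before any pull-down, was set against the homogenate. In SN_input 4 of the 9 genes were higher than in Input (2.55% of all genes passed in either direction, 2.08% as higher). Glial markers moved in the same comparison, with 8 of 10 microglial (median 2.76), 3 of 6 astrocyte (1.96) and 3 of 6 oligodendrocyte markers (1.91) higher, while 0 of 7 neuronal markers were called; their part was not tested. Fcer1g was at 67.9, 119 and 342 CPM in SN_input (lowest, median and highest), a log2 difference of 3.81 (SE 0.389, adjusted p = 3.98e-09). Fcgr3 was at 32.8, 98.0 and 483 CPM, a difference of 4.36 (SE 0.520, adjusted p = 1.72e-07), and Fcrls at 5.08, 141 and 272 CPM, a difference of 3.71 (SE 0.487, adjusted p = 1.35e-06). D was the highest SN_input library for all 3 genes. Fcgr2b was at 4.27, 7.53 and 37.5 CPM, a difference of 4.10 (SE 1.09, adjusted p = 0.0283), again highest in D. Without D the adjusted p was 0.0708, and without E, F, G, H or I it lay between 0.0665 and 0.0997. With the letter as a block the call for Fcgr2b was lost too. SN_input lay entirely above Input for Fcer1g, Fcgr2b and Fcgr3, as it did for 0.344% of genes tested.

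The other 5 genes did not pass in this comparison. Fcgr1 differed by 3.33 (adjusted p = 0.0632), Fcgrt by 2.13 (0.0971) and Lyn by 2.08 (0.108), and without D the adjusted p of Fcgrt became 0.0115 and that of Lyn 0.00157. Syk differed by 2.20 (adjusted p = 0.359) and Fcgr4 by 4.05 (0.345). In SN_input all of D to F lay below all of G to K for Fcgrt, Lyn and Syk: Fcgrt was at 0.276 to 10.2 against 30.4 to 70.9 CPM, Lyn at 0.138 to 3.37 against 13.8 to 26.4 CPM and Syk at 0 to 3.88 against 3.99 to 18.6 CPM. D was the lowest library for all 3, and Fcgr1, at 0 to 3.37 against 9.77 to 16.6 CPM, did not overlap between the sets either. How many of all genes separated the sets in this way was not counted, so it cannot be read as particular to these genes.

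Whether tagged ribosomes in the synaptosome fraction carried the transcripts was asked by setting PeMP_TRAP against SN_input in tamoxifen mice. For Fcgrt and Fcgr2b this comparison alone cannot decide it. In control mice, in which no tagged ribosomes were to be made, their differences were 2.79 and 2.64, against 3.18 and 2.40 in tamoxifen mice. Over the 9 genes the control median was -0.21, with 0 called (0% of all genes). In tamoxifen mice 7 of the 9 genes were higher in PeMP_TRAP. Among all genes, 32.3% passed in either direction and 6.15% as higher. The members' median was 3.31 against -0.75 for all genes. PeMP_TRAP lay entirely above SN_input for Fcer1g, Fcrls and Lyn, as it did for 0.547% of genes. Fcer1g was at 551, 1074 and 2956 CPM in PeMP_TRAP (lowest, median and highest), a log2 difference of 3.31 (SE 0.383, adjusted p = 1.14e-07). The first set, at 2618 to 2956 CPM, lay above the second, at 551 to 1075 CPM.

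Fcgr3 was at 303, 609 and 3937 CPM in PeMP_TRAP, 3.17 higher than SN_input (SE 0.497, adjusted p = 3.08e-05), and the groups overlapped because D stood at 483 CPM in SN_input. Fcgr1 was at 0, 154 and 465.8 CPM, a difference of 4.46 (SE 1.12, adjusted p = 0.0024); it was higher in PeMP_TRAP in 7 of 8 letters, the exception being H, which had a count of 0. Fcgr4 was at 0 in 5 of 8 PeMP_TRAP libraries and at 0.402, 10.8 and 79.7 CPM in E, G and F, and its difference of 3.93 did not pass (SE 2.08, adjusted p = 0.148). Without I, which had the highest SN_input value of 4.46 CPM, Fcgr4 passed with a difference of 6.26 and an adjusted p of 0.0311.

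The inhibitory receptor Fcgr2b did not pass in this comparison, with a difference of 2.40 (SE 0.990, adjusted p = 0.0592). It was at 0 in J and K, at 101 and 114 CPM in H and I, and at 36.0 to 93.2 CPM in D to G, so that it was higher in PeMP_TRAP than in SN_input in 5 of 8 letters. Without D its difference was 2.82 with an adjusted p of 0.0356, and DESeq2 called it higher too, with an adjusted p of 0.0392. With limma voom its difference had the opposite sign and was not called. Fcrls was at 556, 896 and 3098 CPM, a difference of 3.49 (SE 0.487, adjusted p = 4.61e-06), and Fcgrt was at 11.9, 126 and 512 CPM, a difference of 3.18 (SE 0.745, adjusted p = 0.00134). The lowest Fcgrt library, K at 11.9 CPM, was the only one below the SN_input library of its letter, at 35.5 CPM.

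Lyn was at 26.5, 110 and 236 CPM in PeMP_TRAP, against 0.138, 15.98 and 26.4 CPM in SN_input, a difference of 3.44 (SE 0.720, adjusted p = 0.0005). The groups did not overlap, by a narrow margin: E, the lowest PeMP_TRAP library, was followed directly by the highest SN_input libraries. Syk was at 0, 31.3 and 130 CPM against 0, 5.82 and 18.6 CPM, a difference of 2.89 (SE 1.08, adjusted p = 0.0354), with overlapping groups and a count of 0 in H. The call for Syk was lost without E, F, G or I, with an adjusted p of 0.116, 0.106, 0.0875 or 0.058. It was also lost with the letter as a block. E and F held its highest values, 121 and 130 CPM. Microglial markers were higher for 10 of 10 genes in the same comparison, with a median of 3.09. Border macrophage markers were higher for 0 of 8 and lower for 3, with a median of -0.70. Neuronal markers were lower for 6 of 7 and astrocyte markers for 4 of 6, with medians of -2.10 and -2.40. B and plasma cell markers summed to 0 to 13.98 CPM in SN_input and 10.1 to 455 CPM in PeMP_TRAP of tamoxifen mice. Of the 5 of 8 that were tested, 3 were higher in PeMP_TRAP than in SN_input and 1 lower, with a median of 3.85; Cd79a and Pax5 were at 0 in PeMP_TRAP, and the part of these cells was not tested.

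The pull-downs themselves were compared next, PeMP_TRAP against MG_TRAP. No member passed: 0 of 9 at an adjusted p of 0.05, and 0 of 9 at an unadjusted p of 0.05, against 25.2% and 34.3% of all genes (3.17% higher and 22% lower at the adjusted threshold). The groups of all 9 overlapped, whereas PeMP_TRAP lay entirely above MG_TRAP for 0.0191% of genes and entirely below for 2.54%. The log2 differences were 0.15 for Fcer1g (SE 0.347), 1.08 for Fcgr1 (SE 0.926), 0.78 for Fcgr3 (SE 0.465), 1.32 for Fcgr4 (SE 1.77) and -0.31 for Fcgr2b (SE 0.939). Those of Fcrls, Fcgrt, Syk and Lyn were 0.88 (SE 0.443), 1.14 (SE 0.669), 0.65 (SE 0.992) and -0.34 (SE 0.646). These signs depend on the scaling: Fcer1g was at -0.32 with RLE size factors and -0.56 with total counts, and Fcgr3 at -0.18 with total counts. By CPM, both genes were lower in PeMP_TRAP in 6 of 8 letters. DESeq2 called 0 of the 9, against 32.7% of all genes, and limma voom called Fcgr2b lower, by 2.97 with an adjusted p of 0.0461, against 44.2% of all genes. A p above the threshold does not show that the levels were equal, and the size of the SE leaves differences of several-fold undetectable for Fcgr1, Fcgr4, Fcgr2b and Syk.

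**Figure D3:**
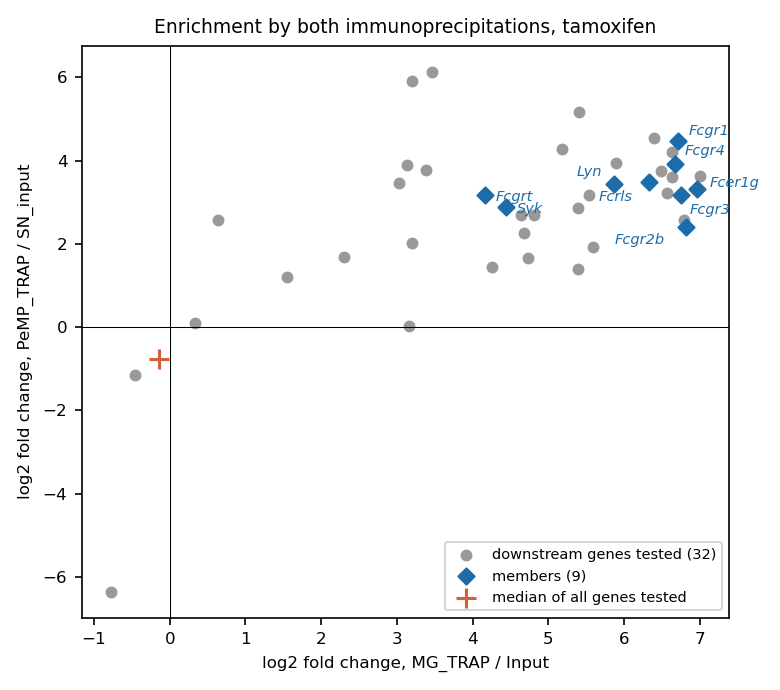
Log2 difference of MG_TRAP against Input (horizontal axis) and of PeMP_TRAP against SN_input (vertical axis) in tamoxifen mice. Blue diamonds are the 9 genes, grey dots the 32 tested genes that act downstream of Fc receptors, and the orange plus is the median of all genes; all 9 diamonds lie at 4.16 to 6.97 across and 2.40 to 4.46 up.

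The pull-down enrichment in the synaptosome fraction was then tested against that in the homogenate. It was lower for 4 of the 9 genes (11.3% of all genes differed, 10.9% as lower). The log2 enrichment was lower by 3.66 for Fcer1g (SE 0.507, adjusted p = 3.35e-05), by 3.58 for Fcgr3 (SE 0.657, adjusted p = 0.000985) and by 2.84 for Fcrls (SE 0.637, adjusted p = 0.00386). For Fcgr2b it was lower by 4.41 (SE 1.42, adjusted p = 0.0366), a call lost without D, E, F, G, H or I, with adjusted p-values from 0.0531 to 0.0805. That call was also lost with the letter as a block. Lyn, lower by 2.42, did not pass (adjusted p = 0.0879), but did without D, with an adjusted p of 0.00362. Fcgr1, Fcgr4, Fcgrt and Syk had differences of -2.25, -2.74, -0.99 and -1.55 with adjusted p-values from 0.329 to 0.642. With the first set alone, 0 of the 9 passed, as did 0 of all 12968 genes tested. Of the 10 microglial markers, 8 were lower, with a median of -3.11.

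The 2 sets were tested against each other in 3 comparisons between fractions; for SN_input against Input and for the difference in enrichment, this was not tested. In edgeR's test of the difference between sets 0 of the 9 genes passed in MG_TRAP against Input (0 of 17961 genes did), in PeMP_TRAP against SN_input (15.1% of genes did) or in PeMP_TRAP against MG_TRAP (15.3%). In PeMP_TRAP against SN_input, 8 of the 9 values were lower in the second set, where the median of all genes was lower too, at -1.61; the members ran from -1.55 for Fcer1g (adjusted p = 0.121) to -11.08 for Fcgr4 (adjusted p = 0.148), with Fcgrt at -3.601 (adjusted p = 0.0605) and Fcgr1 at -4.70 (adjusted p = 0.0699) closest to the threshold, and Fcgr2b was at 0.72. At an unadjusted p of 0.05, 5 of the 9 (Fcer1g, Fcgr1, Fcgr4, Fcrls and Fcgrt) and 25.7% of all genes passed there, Fcgr1 and 5.96% of genes in MG_TRAP against Input, and Fcgr3 and 24.3% of genes in PeMP_TRAP against MG_TRAP. Single letters mattered in PeMP_TRAP against SN_input: without D, Fcer1g (-1.76, adjusted p = 0.00913) and Fcrls (-2.17, adjusted p = 0.0458) passed, without E, Fcgr1 (-9.12, adjusted p = 0.0171), Fcgrt (-5.36, adjusted p = 0.0305) and Lyn (-4.82, adjusted p = 0.0355), without H, Fcgr1 (-4.47, adjusted p = 0.0441), and without G, Fcgr4 (adjusted p = 0.00643), which passed in PeMP_TRAP against MG_TRAP too (adjusted p = 0.0202).

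The balance of inhibitory and activating receptors was measured within each library as the log2 ratio of Fcgr2b to the sum of Fcgr1, Fcgr3 and Fcgr4, per kb and with 0.5 counts added to each. In MG_TRAP of tamoxifen mice it lay between -5.51 and -4.57, with a median of -5.08, and in Input between -8.77 and -4.01, with a median of -4.95. In Input, Fcgr2b had 1 count in D and 0 in E, so their ratios, -8.77 and -7.98, are largely set by the 0.5 counts added. The mean difference of MG_TRAP from Input was 0.63 (two-sided exact permutation within sets, adjusted p = 0.472 over 4 such tests). It was 2.11 in the first set alone, -0.26 in the second set alone, 0.187 without D and 0.33 without E. In PeMP_TRAP the ratio ran from -16.96 to -3.66, with the 6 libraries other than J and K at -8.56 to -3.66. In J and K, at -15.40 and -16.96, Fcgr2b had no counts, so these values are set by the 0.5 counts added. The mean difference from MG_TRAP was -3.23, which did not pass (exact permutation, adjusted p = 0.221), and it was -2.14 without J and -2.01 without K.

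The ratio of Lyn to Syk, the kinase that phosphorylates the adaptor over the kinase that binds it, was treated alike. It lay between 2.76 and 4.59 in MG_TRAP, with a median of 3.47, and between -1.86 and 4.37 in Input, with a median of 2.25. It was higher in MG_TRAP by 1.59 in the mean (exact two-sided permutation within sets, p = 0.0119, adjusted p = 0.0476), although the ranges overlapped. In Input, E stood at 4.37, where Syk had no counts, and F at -1.86, where Lyn had 1 count. With the letter as a block the call was lost (exact permutation of signs, p = 0.0312, adjusted p = 0.125). Leaving out F gave 0.895 with an adjusted p of 0.159, and of the 8 letters only D and E could be left out with the call kept, the adjusted p then being 0.0317 and 0.00529, against 0.0686 to 0.159 for the others. The second set alone gave 1.22 (adjusted p = 0.0317) and the first set alone 2.21, where 3 libraries against 3 cannot go below a p of 0.1. PeMP_TRAP, at -0.985 to 13.9 with a median of 2.93, differed from MG_TRAP by 0.32 (exact permutation, adjusted p = 0.916).

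**Figure D4:**
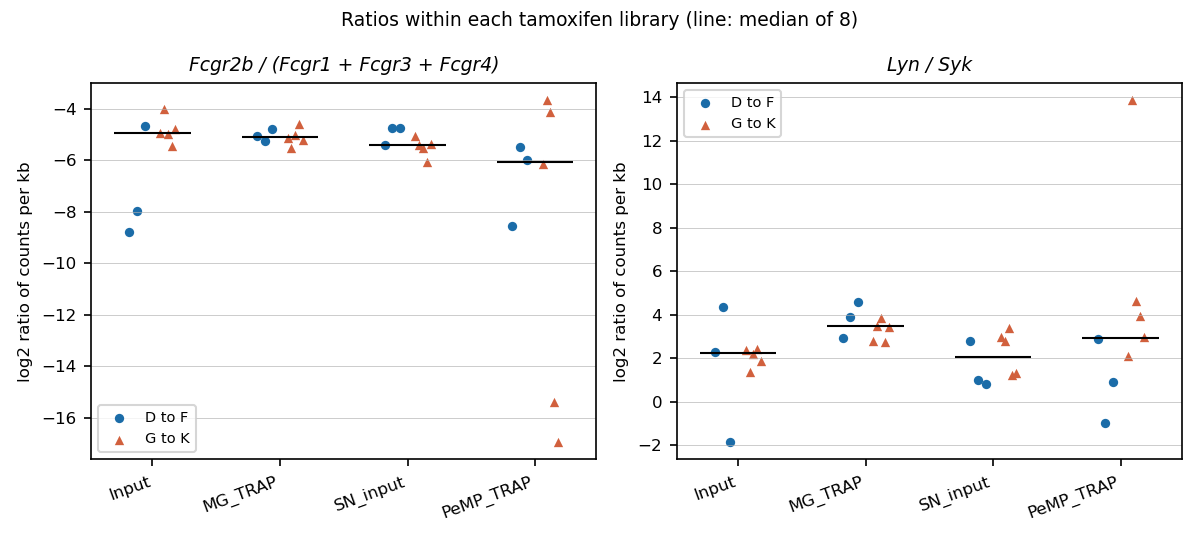
Within-library log2 ratios per kb (vertical axes) of Fcgr2b to the summed activating receptors and of Lyn to Syk in the 4 fractions of tamoxifen mice. Blue circles are D to F, orange triangles G to K and lines the median of 8; the MG_TRAP points lie within -5.51 to -4.57 and 2.76 to 4.59, and the far points in PeMP_TRAP are libraries with a count of 0 for Fcgr2b (J, K) or Syk (H).

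Control mice give the background of the pull-down, and were compared with D to F, 3 libraries against 3. In MG_TRAP, Fcer1g was at 48.2, 758 and 194 CPM in control A, B and C and at 2101, 4789 and 7513 CPM in D, E and F. Fcgr1 was at 16.8, 21.1 and 18.8 CPM against 92.4, 293 and 146 CPM, and Fcgr3 at 172, 87.6 and 306 CPM against 2069, 947 and 986 CPM. Neither receptor overlapped, and nor did the adaptor. Fcgr4 had no counts in any control MG_TRAP library and 9.79, 4.86 and 2.25 CPM in D, E and F. The mean of these was at least 2.85-fold higher than controls, at the highest control floor of 3 counts (1.98 CPM), which F by itself barely exceeded. Fcgr2b was at 0.0787, 0 and 33.6 CPM against 217, 101 and 132 CPM, Fcrls at 152, 113 and 421 CPM against 1987, 842 and 1061 CPM, and Fcgrt at 40.3, 30.9 and 23.4 CPM against 311, 82.9 and 156 CPM. Lyn was at 14.5, 1.98 and 6.20 CPM against 297, 134 and 196 CPM. Syk, at 28.0, 0 and 23.5 CPM in controls and 89.97, 20.6 and 18.6 CPM in D to F, was the only member with overlapping groups. Tamoxifen libraries thus lay entirely above control for 8 of the 9 genes, as for 10.3% of genes tested.

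These differences did not pass in edgeR. It called 0 of the 9 members and 0 of 14771 genes (0%) in MG_TRAP, with log2 differences from 1.56 for Syk (adjusted p = 0.740) to 5.08 for Lyn (0.225) over the 8 genes with counts in controls, 4.30 for Fcer1g (0.0933) among them, and an adjusted p of 0.243 for Fcgr4. At an unadjusted p of 0.05, 8 members passed, all but Syk, against 15.9% of all genes. Neuronal markers summed to 6375 to 9316 CPM in control MG_TRAP and 937 to 1460 CPM in D to F, with 0 of 7 called, and 0 of the 10 microglial markers were called, with a median of 2.86. Border macrophage markers summed to 0 to 17.2 CPM against 129 to 246 CPM, with 0 of 6 tested called and a median of 6.14. B and plasma cell markers summed to 0.658 to 8.74 CPM against 66.3 to 133 CPM, with 0 of 3 tested called and a median of 9.66. The part of these cell types was not tested. DESeq2 called 5 of the 9 (Fcer1g, Fcgr1, Fcgr3, Fcgrt and Lyn; 5.67% of all genes) and limma voom 6 (Fcer1g, Fcgr2b, Fcgr3, Fcgr4, Fcrls and Lyn; 8.1%). In edgeR without control B, which held the highest control value of Fcer1g, that gene passed with a difference of 6.11 and an adjusted p of 0.0419.

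In PeMP_TRAP 5 of the 9 genes were higher in tamoxifen mice (11.1% of all genes passed, 5.56% as higher). Markers of cell types moved in the same comparison, and their part was not tested. Microglial markers summed to 555 to 3367 CPM in controls and 6349 to 13663 CPM in D to F, with 6 of 10 higher and a median of 3.66. Neuronal markers summed to 2689 to 7329 CPM against 507 to 1502 CPM, with 2 of 7 lower, and endothelial markers to 331 to 2129 CPM against 3.22 to 348 CPM, with 2 of 6 tested lower. Oligodendrocyte markers summed to 4455 to 16097 CPM against 702 to 3066 CPM. B and plasma cell markers summed to 0 to 60.5 CPM against 10.1 to 455 CPM, with 1 of 3 tested higher and a median of 8.56. Fcer1g was at 52.7, 610 and 270 CPM in control A, B and C and at 2936, 2956 and 2618 CPM in D, E and F, a log2 difference of 3.25 (SE 0.980, adjusted p = 0.0302). Fcgr3 was at 2.93, 18.6 and 175 CPM against 3937, 523 and 1380 CPM, a difference of 5.14 (SE 1.17, adjusted p = 0.00804). Fcgr1, Syk and Lyn had 2 counts each in all control libraries together. Over the pooled counts, Fcgr1 was 732 times as abundant (95% exact counting interval 202 to 6048, adjusted p = 0.00532 in edgeR), Syk 171 times (47.1 to 1412, adjusted p = 0.0312) and Lyn 292 times (80.6 to 2411, adjusted p = 0.0142). Pooling weighs libraries by depth, and D held 12599917 reads against 2486933 in E and 740679 in F. The edgeR log2 differences were 10.13 for Fcgr1, 8.70 for Syk and 7.91 for Lyn, so Syk and Lyn stood in the other order there.

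Of the other 4, Fcgr4 had no counts in controls and 0, 1 and 59 counts in D, E and F, so that any difference rested on F, and it did not pass (adjusted p = 0.0776). Fcrls was at 3.42, 12.4 and 541 CPM in controls against 3098, 980 and 724 CPM (3.42, adjusted p = 0.0656). Fcgrt was at 47.9, 22.1 and 223 CPM against 433, 123 and 130 CPM (1.57, adjusted p = 0.347), and Fcgr2b at 99.6, 0 and 0.246 CPM against 36.0, 49.1 and 93.2 CPM (1.34, adjusted p = 0.642). Control A held all but 1 of the Fcgr2b counts of controls, and control C the highest counts of Fcgr3, Fcrls and Fcgrt. Tamoxifen lay entirely above control for 6 genes (Fcer1g, Fcgr1, Fcgr3, Fcrls, Syk and Lyn), as for 10.3% of genes tested.

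The calls in PeMP_TRAP changed with single letters. Leaving out 1 letter in turn gave 2 to 5 calls, against 2.28% to 8.67% of all genes, with the fewest members and the lowest share of all genes without F, where Fcer1g (adjusted p = 0.0575), Syk (0.0819) and Lyn (0.0515) were lost. Fcer1g was also lost without A, C, D or E (adjusted p of 0.0529, 0.0689, 0.0502 and 0.0565), and Syk without A, B or E (0.0572, 0.0568 and 0.063). Fcrls passed without C, at 8.45 (adjusted p = 0.00728), and Fcgr2b without A, at 8.50 (adjusted p = 0.0339). Fcgr1 and Fcgr3 passed under each of these omissions. A fit on the 6 compared libraries alone kept Fcgr1 only.

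**Figure D5:**
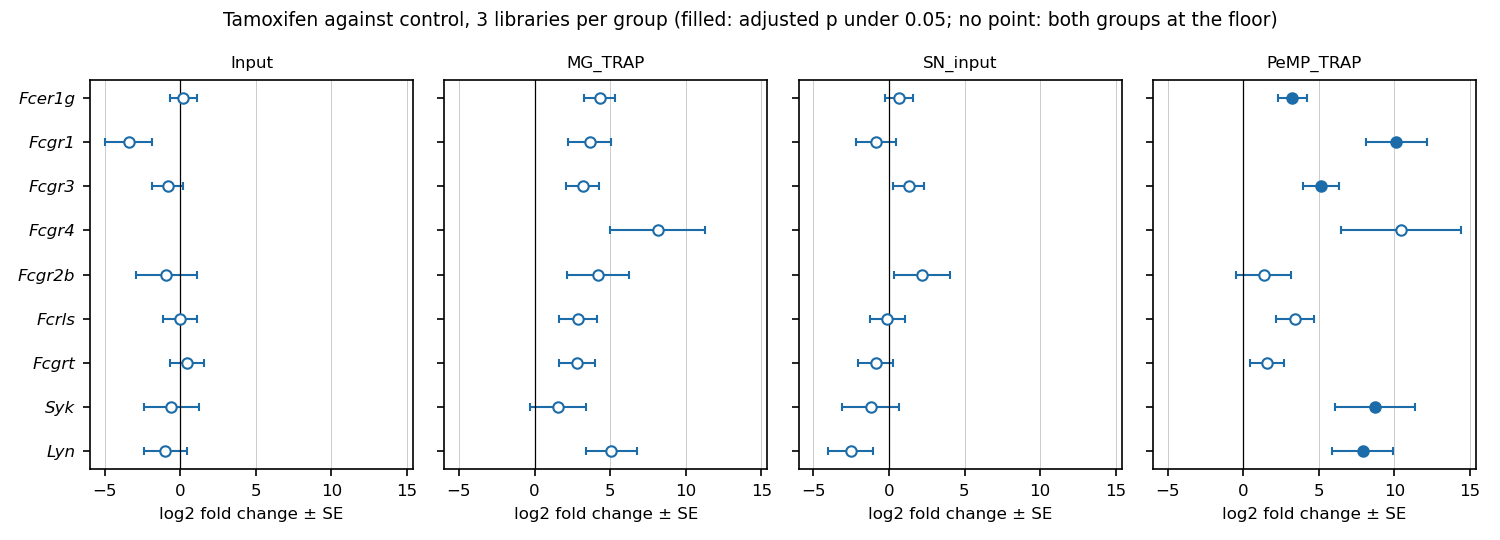
Log2 difference of tamoxifen (D to F) against control (A to C), with SE, for the 9 genes in the 4 fractions, from edgeR. Filled points passed an adjusted p of 0.05, which 5 genes did in PeMP_TRAP and 0 in the other fractions; Fcgr4 has no point in Input and SN_input, where both groups are at or under the floor.

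Total RNA gave no call between treatments. In Input 0 of the 9 genes passed, with differences from -3.43 for Fcgr1 to 0.46 for Fcgrt, as did 0% of all genes, and at an unadjusted p of 0.05 Fcgr1 alone did, against 3.06% of all genes. Fcgr1 was at 0.604, 1.11 and 4.30 CPM in control Input and 0.0578, 0.436 and 0 CPM in D to F, entirely lower, as 2.41% of genes were. Over the pooled counts, 31 against 3, control was 13.2 times as high (95% exact counting interval 4.10 to 67.3). In G to K, for which there are no controls of the same set, Fcgr1 was at 1.91 to 2.78 CPM in Input, within the range of the controls. In SN_input 0 of the 9 passed at either threshold, with differences from -2.54 for Lyn to 2.18 for Fcgr2b, against 0% and 3.35% of all genes. Lyn, at 18.996, 6.66 and 32.2 CPM in control SN_input, lay above D to F, at 0.138, 3.37 and 0.635 CPM, as 19% of genes did, whereas G to K, at 13.8 to 26.4 CPM, lay within the range of the controls.

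Within control mice the pull-down was compared with its input as well. In MG_TRAP against Input 0 of the 9 passed in edgeR (0.0135% of all genes did), with a median of 3.13 over the members. At an unadjusted p of 0.05, Fcer1g, Fcgr1, Fcgr3 and Fcrls passed, against 7.45% of all genes, and DESeq2 called Fcer1g and Fcgr3. Control MG_TRAP lay above control Input for Fcgr1, Fcgr3, Fcrls and Fcgrt, as for 6.25% of genes. In control PeMP_TRAP against SN_input 0 of the 9 passed (0% of all genes), with differences from -5.38 for Lyn to 2.79 for Fcgrt; unadjusted, 4 did (Fcgrt higher, and Fcgr1, Syk and Lyn lower) against 17.4% of all genes, and DESeq2 called Fcgrt higher and Lyn lower. Endothelial markers, of cells that also express Fcgrt, summed to 331 to 2129 CPM in control PeMP_TRAP and 2.304 to 35.1 CPM in SN_input, with a median difference of 6.80 and 0 of 6 called, and their part was not tested. Over the pooled counts, Lyn in control SN_input was 83.1 times as high as in PeMP_TRAP, where it had 2 counts (95% exact counting interval 22.9 to 689), and PeMP_TRAP lay entirely below SN_input for Lyn, as for 19.8% of genes. The difference between treatments in this enrichment passed for 2 of the 9, Fcgr1 at 10.99 (SE 2.34) and Lyn at 10.45 (SE 2.51), with an adjusted p of 0.0417 each, while 1.24% of all genes passed, 0.914% in this direction. Without A, D or F neither passed, with adjusted p-values of 0.0576, 0.126 and 0.187 for Fcgr1 and 0.0617, 0.136 and 0.189 for Lyn, and Lyn was lost without C or E too, at 0.0742 and 0.056, while Fcrls passed without C (8.10, adjusted p = 0.0447). In the homogenate it passed for 0 of 9 members and 0% of genes; at an unadjusted p of 0.05, Fcer1g, Fcgr1, Fcgr3 and Lyn did, as did 9.19% of genes.

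Genes that act after the receptors were followed as a list of 34, of which 32 passed the filter. In MG_TRAP against Input 19 of the 32 were higher and 0 lower, with a median of 4.70, against 4.67% of all genes higher and a median of -0.14. Tyrobp, an adaptor akin to Fcer1g, had the largest difference at 7.002 (SE 0.452, adjusted p = 2.75e-15), from 14.4 to 57.1 CPM in Input to 1011 to 12198 CPM in MG_TRAP, and Sirpa, an inhibitory receptor for CD47 that neurons also express, the smallest of those that passed at 1.55 (SE 0.355, adjusted p = 0.00326). In PeMP_TRAP against SN_input 16 were higher and 1 lower, with a median of 2.78, against 6.15% of all genes higher and a median of -0.75. In PeMP_TRAP against MG_TRAP 0 were higher and 1 lower, with a median of 0.54, against 3.17% and 22% of all genes and a median of -0.57. The gene lower there was Vav3, a guanine nucleotide exchange factor, at 0 to 1.35 CPM in PeMP_TRAP and 0 to 11.9 CPM in MG_TRAP (-6.50, SE 1.83, adjusted p = 0.00764). In tamoxifen against control, 0 of 31 tested were called in MG_TRAP, as were 0% of all genes, and 14 were higher in PeMP_TRAP, with a median of 5.09, against 5.56% of all genes and a median of 0.

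Of 12 other Fc receptors, 2 passed the filter in the fit of tamoxifen libraries, Fcrl1 and Fcrlb, and 4 did in the fits of treatments and of sets. Fcrl1, a B cell receptor-like protein, was higher in MG_TRAP than in Input by 6.44 (SE 1.95, adjusted p = 0.0329), at 0 to 45.9 CPM against 0 to 0.657 CPM. Fcer1a and Ms4a2, the other chains of the IgE receptor that Fcer1g belongs to in mast cells, were at 0 in 43 and 41 of the 44 libraries; they were singled out after their values had been seen. Mast cell markers summed to 0 to 22.8 CPM in MG_TRAP of tamoxifen mice, with Mcpt4 and Ms4a2 at 0.

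The genes whose levels most resembled those of Fcer1g over the 32 tamoxifen libraries, among 4353 genes with an average log2 CPM of at least 4, were Tyrobp (Pearson r = 0.994), Aif1 (0.990), Ltc4s (0.981), Vamp8 (0.979) and Ctss (0.979). Of the members above that level, Fcgr3 reached 0.956, Fcrls 0.925, Lyn 0.741 and Fcgrt 0.702. These libraries fall into 4 fractions that share letters, so the values describe the pattern over fractions and carry no test.

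The authors' deposited table covers the first set only. Its headers name tamoxifen for the pull-downs but no treatment for the inputs, so control inputs may be included. It holds likelihood ratios, whereas the fits here used a quasi-likelihood test on tamoxifen libraries, so samples and test can differ. In the authors' deposited table, 8 of the 9 genes had an adjusted p under 0.05 in MG_TRAP against Input (9.4% of its 13634 genes did, 6.96% as higher), with log2 fold changes from 3.83 for Syk (adjusted p = 0.0594) to 8.85 for Fcgr2b, and 8 of the 9 did in PeMP_TRAP against SN_input (17.9% of its genes, 9.6% as higher), the exception being Fcgr2b at 2.88 (adjusted p = 0.105). For SN_input against Input the authors' deposited table gave 4 of the 9, against 1.38% of its genes: Fcer1g (adjusted p = 0.0144), Fcgr2b (0.0274), Fcgr3 (0.000464) and Fcrls (0.0473).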

How the data were processed

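RNA of 44 libraries was amplified with SMART-Seq v4 and prepared with NEBNext Ultra II, per the labels' protocols. The authors deposited raw read counts per Ensembl gene from HTSeq. The submitters' processing notes name FastQC 0.11.7, Trimmomatic 0.38, Bowtie2 2.3.5, STAR 2.7.0d and HTSeq 0.9.1 for all 44 libraries and edgeR for 24; their roles, the genome build, the annotation and the counting options are not given in the sources used here. A table deposited by the authors for the first set holds log2 fold changes and log2 levels, p-values and a likelihood ratio score, per the file headers; only its fold changes and adjusted p-values were quoted, and the score was not used further.

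The 50714 identifiers shared by both sets (54146 and 55359 listed) were used; those left out held 0.0232% to 0.795% of assigned reads, and rows that name no gene, 27.0% to 93.4% of all reads in a library, stayed out. Counts were tested with edgeR 4.0.16 (R 4.3.3; TMM scaling, filterByExpr with a minimum count of 10, quasi-likelihood test, Benjamini-Hochberg adjusted p over all genes, threshold 0.05; the SE is the log2 difference over the square root of F). Fractions were compared in 1 fit of 32 tamoxifen libraries, adjusted for set (15710 genes), treatments in 1 fit of the 24 libraries of the first set (14771 genes), and sets by interaction terms (17961 genes). The scripts were tested on simulated data. CPM are counts scaled to a common total of assigned reads, without TMM. Ratios were tested by exact permutation within sets (5040 permutations). DESeq2 1.42.0, limma voom (limma 3.58.1), other scalings, no filter, each set alone, single letters left out and a replicate block were the alternatives. No 2 libraries held identical counts. Letters were not taken as pairs: the correlation of their deviations between fractions ran from -0.0150 to 0.229. All 9 genes were named in every comparison; downstream genes were named where they had the largest or smallest difference among those past the threshold. Members and lists were chosen with earlier results of these data known. The length alternative for levels per kb was added after seeing the data.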

Additional observations from a re-analysis of the deposited data

Results flagged for a closer look

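The 36 groups of tamoxifen libraries were 9 genes in 4 fractions, with 8 libraries each. In 11 of them a library lay at a distance from its nearest neighbour that was large for the range of its group. The rule's nominal rate is about 1 in 20, but these groups pool 2 sets, some hold tied counts of 0 and all genes share the same libraries. That rate therefore does not apply, and the count of 11 carries no test. Values are log2 CPM with TMM scaling, and -2.80 is the value of a count of 0. In SN_input, letter D stood apart in 5 genes. It was the highest for Fcer1g at 8.88 (next 7.52), Fcgr2b at 5.69 (next 3.83) and Fcgr3 at 9.38 (next 7.22), and the lowest for Fcgrt at -0.94 (next 2.90) and Syk at -2.80 (next 1.26). D was also the highest PeMP_TRAP library for Fcrls, at 13.1 (next 10.9). In PeMP_TRAP, H was the lowest for Fcgr1 at -2.80 (next 4.56) and for Syk at -2.80 (next 3.70). In Input, G was the highest for Fcgr3 at 3.33 (next 2.98) and for Fcgr4 at -1.29 (next -2.40), and E was the lowest for Syk at -2.80 (next 0.85).

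For 4 receptor genes the log2 enrichment by pull-down differed between the synaptosome fraction and the homogenate of tamoxifen mice, by -3.66 for Fcer1g, -3.58 for Fcgr3, -2.84 for Fcrls and -4.41 for Fcgr2b; 11.3% of all genes differed, 10.9% as lower, and 8 of 10 microglial markers were lower. The call for Fcgr2b was lost without D, E, F, G, H or I and with the replicate block. The log2 enrichment in the synaptosome fraction differed between tamoxifen and control mice by 10.99 for Fcgr1 and 10.45 for Lyn, each with 2 counts in all control PeMP_TRAP libraries together.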

How the results depend on the processing

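Of 1823 values of the 9 genes under the alternatives, 1629 kept direction and side of the threshold, 75 lost and 45 gained a call in the same direction, and 74 changed sign, 0 of them where either value passed the threshold. The causes were not tested. Changing the scaling moved the median of all genes by up to -1.05 (SN_input against Input, total counts) and by -0.53 or -0.73 in PeMP_TRAP against MG_TRAP. Levels under the limit that a count of 0 allows, 0.0847 to 4.05 CPM by library, were not detectable; Fcgr4 was at or near 0 in most Input, SN_input and PeMP_TRAP libraries, deep ones among them. Fcgr4 could not be fitted in PeMP_TRAP against SN_input with the compared groups only.

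The larger changes in the count of members called are given here, with the share of all genes called under the same alternative; smaller changes, some of them given with the genes above, are left out. With limma voom the counts were 4 in PeMP_TRAP against SN_input (51.4% of all genes), 1 in PeMP_TRAP against MG_TRAP (44.2%), 1 in SN_input against Input (1.33%), 2 in the enrichment difference (12.1%) and 6 in tamoxifen against control MG_TRAP (8.1%). With DESeq2 they were 5 in tamoxifen against control MG_TRAP (5.67%), 2 in control MG_TRAP against Input (1.52%) and 2 in control PeMP_TRAP against SN_input (8.44%). The first set alone gave 1 in SN_input against Input (0.0463%) and 0 in the enrichment difference (0%). Omitting the filter gave 1 in tamoxifen against control MG_TRAP (0.187%), the compared groups only gave 1 in tamoxifen against control PeMP_TRAP (0.353%), and total counts gave 1 in the set difference of PeMP_TRAP against SN_input (15.9%). Leaving out 1 letter gave 0 to 1 in tamoxifen against control MG_TRAP (0% to 0.286%), 2 to 5 in PeMP_TRAP (2.28% to 8.67%), 0 to 3 in the set difference of PeMP_TRAP against SN_input (7.96% to 18%), 0 to 1 in that of PeMP_TRAP against MG_TRAP (7.6% to 18.6%), and 0 to 2 in the treatment difference of the synaptosome enrichment (0% to 1.23%).

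With the replicate letter as a block, Lyn over Syk in MG_TRAP against Input stayed at 1.59 with an adjusted p of 0.125 (exact permutation of signs over 8 letters), Fcgr2b was lost in SN_input against Input and in the enrichment difference (adjusted p = 0.0579 and 0.0796) and Syk in PeMP_TRAP against SN_input (0.0641); the block changed no other call. With it, Fcgr4 was at -3.18 in PeMP_TRAP against MG_TRAP and Fcrls at -0.15 in control PeMP_TRAP against SN_input. In MG_TRAP and Input, 6 of 8 letters correlated best with their own letter, a hint from the data only. The ratio of Lyn to Syk was 2.21 (MG_TRAP against Input) and -2.87 (PeMP_TRAP against MG_TRAP) in the first set alone, and 0.895 to 1.88 and -1.11 to 1.07 without 1 letter. The receptor ratio in MG_TRAP against Input was -0.26 in the second set alone.

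The sign changes were as follows. In PeMP_TRAP against MG_TRAP, limma voom gave Fcgrt -0.0275, Fcgr1 -0.71, Syk -1.19 and Fcgr4 -2.41, and total counts gave Fcrls -0.0011, Syk -0.0782, Fcer1g -0.56 and Fcgr3 -0.18. RLE size factors and DESeq2 gave Fcer1g -0.32 each, and the second set alone gave Syk -0.77, Fcgr4 -1.09 and Fcgr3 -0.31. Without 1 letter, Syk ran from -0.0855 to 0.96, Fcer1g from -0.11 to 0.49 and Fcgr4 from -2.29 to 1.96. In PeMP_TRAP against SN_input, limma voom gave Fcgr2b -0.0705. In the enrichment difference, the first set alone gave Fcgrt 0.83, Syk 1.16 and Fcgr4 2.60.

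In tamoxifen against control Input, Fcrls was 0.031 with RLE size factors, 0.0027 with no filter, 0.033 with DESeq2, 0.79 with limma voom and 0.0132 with the compared groups only, and limma voom gave Syk 0.52, Fcgr2b 0.11 and Fcer1g -0.27. Without 1 letter, Fcgrt ran from -0.46 to 0.79, Fcrls from -0.53 to 1.94, Syk from -1.34 to 1.34, Fcgr2b from -3.42 to 3.83 and Fcer1g from -0.18 to 1.05. In SN_input, Fcrls was 0.0665 with the compared groups only and Fcgr4 0.11 with limma voom, and without 1 letter Fcrls ran from -1.89 to 0.42, Fcgr1 from -5.18 to 0.55 and Fcgr3 from -0.22 to 1.81.

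In control MG_TRAP against Input, Lyn was 1.16 with limma voom, and without 1 letter Fcgr2b ran from -3.42 to 9.33 and Lyn from -1.95 to 0.73. In control PeMP_TRAP against SN_input, limma voom gave Fcrls -1.72 and Fcgr4 1.12, DESeq2 gave Fcgr4 0.96 and Fcgr3 0.0722, and RLE size factors gave Fcgr3 0.0728. Without 1 letter, Fcrls ran from -3.45 to 1.47, Fcgr2b from -4.86 to 5.13 and Fcgr3 from -2.38 to 0.44.

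In the set difference of MG_TRAP against Input, Lyn was 0.0224 with RLE size factors and 0.12 with total counts, and without 1 letter Fcrls ran from -0.0554 to 0.39, Syk from -0.14 to 0.86 and Lyn from -2.85 to 0.15. Without 1 letter, Fcgr2b ran from -0.33 to 1.197 in the set difference of PeMP_TRAP against SN_input. In that of PeMP_TRAP against MG_TRAP, Fcgrt ran from -1.46 to 0.23, Fcrls from -1.56 to 0.0773, Fcgr2b from -0.15 to 0.94, Fcer1g from -0.74 to 0.94 and Fcgr4 from -12.09 to 3.605. In the treatment difference of enrichment, Syk ran from -0.0536 to 3.79 in the homogenate and Fcgr2b from -3.10 to 6.89 in the synaptosome fraction.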
